A study of Drosophila melanogaster with 8 samples.

Results

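Chromosome 4 of Drosophila melanogaster is the small dot chromosome, and all open-chromatin peaks and tested regions on it were taken by their chromosome name in build dm6. It held 76 of 18464 peaks in EcR-RNAi wing discs, 77 of 29283 in wild type (WT) wing discs, 94 of 26754 in WT leg discs and 139 of 16840 in WT salivary glands. It also held 39 of the 13008 regions of the authors' deposited comparison tables. Its genes, 114 in the gene table used here and 80 of them protein-coding, span 1.27 Mb, and the other autosomes are the arms 2L, 2R, 3L and 3R.

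Open chromatin was measured by FAIRE-seq, which recovers DNA of low nucleosome occupancy after crosslinking and phenol extraction. The 8 libraries form 4 groups of 2, all from female wandering larvae at -6 h relative to puparium formation (APF), each from at least 40 pooled tissues. The EcR-RNAi wing discs were yw/yw with Vg-GAL4, UAS-Flp and Tub>>CD2>>GAL4, and with UAS-GFP over UAS-EcR-RNAi[104]. This hairpin against the ecdysone receptor gene EcR was thus driven where vestigial-GAL4 had flipped the tubulin cassette. WT wing discs, WT leg discs and WT salivary glands were +/+ on each chromosome pair, so the WT wings also lack the yw background, GAL4, Flp and GFP, and the RNAi cannot be told apart from these. The gland peak names carry the prefix EcRmimic and a fragment-size tag that the WT wing and leg names do not, although the labels call the gland wild type, and its part in differences from gland was not tested.

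The dot chromosome is an unusual autosome. Most of it is packed in heterochromatin rich in the protein HP1a, with H3K9 methylation set largely by Eggless (egg), and yet its genes are transcribed. The protein Pof binds those genes along the chromosome. Many of them encode developmental transcription factors, among them cubitus interruptus (ci, the Hedgehog effector), pangolin (pan, the Wnt effector TCF), eyeless (ey) and twin of eyeless (toy), which are Pax6 proteins, shaven (sv, a Pax2 relative) and zfh2. In polytene salivary glands some of the genome is also copied less than the rest, and no library here measures DNA copy number.

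In the disc lists chromosome 4 held fewer peaks for its length than the other autosomes, and in the gland list about as many. In EcR-RNAi wing it had 59.8 peaks per Mb of gene span, against 138.8 on the other autosomes, a ratio of 0.431 (95% exact interval 0.339 to 0.540). In WT wing chromosome 4 had 60.6 peaks per Mb, against 210.4 on the other autosomes, a ratio of 0.288 (0.227 to 0.360). In WT leg it had 74.0, against 191.2, a ratio of 0.387 (0.312 to 0.474), and in WT gland 109.4, against 124.7, a ratio of 0.877 (0.737 to 1.04). The intervals cover counting error only, since each list comes from merged libraries. On chromosome 4, 7 to 9 peaks a list lay past the last gene and so outside this span. They are counted, which raises its density, and the ratio without them was not computed. The chromosome took 0.412% of the EcR-RNAi wing list, 0.263% of the WT wing list, 0.351% of the WT leg list and 0.825% of the gland list.

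**Figure D1:**
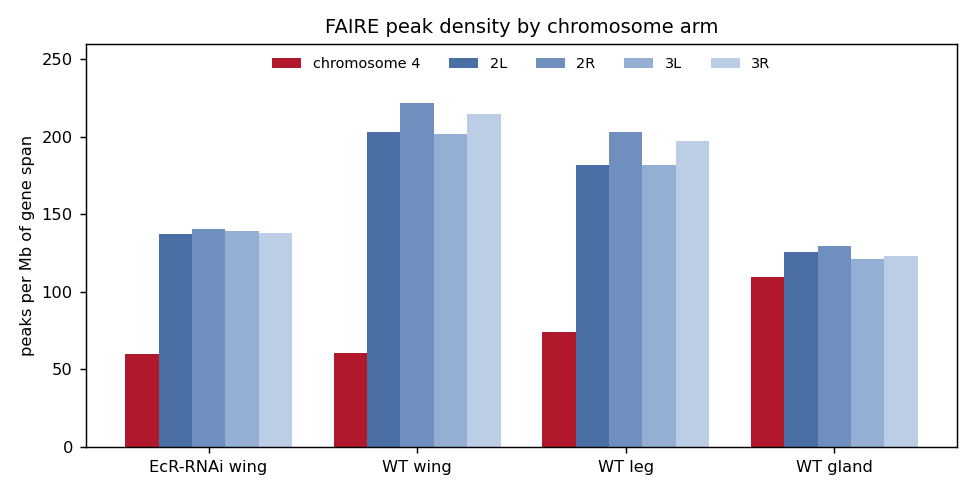
Peaks per Mb of gene span in each of the 4 peak lists, for chromosome 4 and the arms 2L, 2R, 3L and 3R (bars, 1 merged list per group, no replicate error). Chromosome 4 was the lowest in every list, far below the arms in the discs (59.8 to 74.0 peaks per Mb) and close to them in the gland (109.4 against 124.7 over the 4 arms together).

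The near parity in gland came with weak peaks. Of the 139 gland peaks on chromosome 4, 126 had a −log10 q under 10, and the 13 at or above it gave a density ratio of 0.382, beside 0.375 in EcR-RNAi wing, 0.343 in WT wing and 0.372 in WT leg. At a −log10 q of at least 5, gland still had the highest ratio, 0.567, beside 0.390, 0.347 and 0.454. Gland peaks on chromosome 4 had a −log10 q of at least 10 in 9.35% of cases, against 21.5% on the other autosomes. The same shares on chromosome 4 were 44.7% in EcR-RNAi wing, 41.6% in WT wing and 37.2% in WT leg, against 51.4%, 34.9% and 38.7% on the other autosomes. Measured by length, peaks covered 1.79% of the chromosome 4 span in EcR-RNAi wing, 1.71% in WT wing, 1.88% in WT leg and 1.33% in gland, against 4.89%, 6.38%, 5.70% and 2.3% of the other autosomes. Covered length was thus lower on chromosome 4 in all 4 lists, gland included. Gland peaks there were narrow, with a median width of 96 bp, against 151 bp on the other autosomes.

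Fewer genes also lie on each Mb of chromosome 4, 89.7 against 137.9 on the other autosomes. Per gene, the chromosome had 0.667 peaks in EcR-RNAi wing, 0.675 in WT wing and 0.825 in WT leg, against 1.01, 1.53 and 1.39 on the other autosomes, and in gland it had more, 1.22 against 0.905. Of its 80 protein-coding genes, 30 (37.5%) held a peak or had one within 500 bp in EcR-RNAi wing, 28 (35%) in WT wing, 42 (52.5%) in WT leg and 59 (73.8%) in gland. On the other autosomes these shares were 51.9%, 61.6%, 61.0% and 56.6%. With peaks of −log10 q of at least 10 alone, the count in gland was 12 genes (15%), against 26.1% on the other autosomes. At that mark the disc counts were 16 genes (20%) in EcR-RNAi wing, 14 (17.5%) in WT wing and 17 (21.2%) in WT leg, against 36.6%, 30.5% and 31.9%. The gland share above that of the other autosomes thus rests on peaks under this mark.

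Peaks on chromosome 4 had a larger median distance to a gene end than peaks elsewhere, in every list. In WT wing 54.5% of the peak summits were inside a gene, against 74.3% on the other autosomes, and in WT leg 51.1% against 72.5%. In EcR-RNAi wing the share was 59.2% on chromosome 4, against 61.7%, and in gland 72.7%, against 75.7%. The median distance from summit to the nearest gene end was 2112 bp in EcR-RNAi wing, 2771 bp in WT wing, 1466 bp in WT leg and 876 bp in gland, against 1070, 1291, 1215 and 391 bp on the other autosomes. Summits within 500 bp of a gene end, at either side of the gene because the gene table gives no strand, made up 31.6% in EcR-RNAi wing, 29.9% in WT wing, 36.2% in WT leg and 43.2% in gland, against 39.0%, 31.2%, 33.2% and 54.1% on the other autosomes, so that WT leg had the higher share on chromosome 4. Of the peaks, 7 in EcR-RNAi wing, 8 in WT wing, 9 in WT leg and 8 in gland lay past the end of Cadps, the last gene of the table, at 1271759.

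Along the chromosome each disc list had most peaks in the 100 kb stretch that holds zfh2, which encodes a zinc-finger homeodomain protein. The stretch from 500 to 600 kb, which holds this gene and others, had 14 peaks in EcR-RNAi wing, 14 in WT wing and 14 in WT leg, and 15 in gland. From 400 to 500 kb EcR-RNAi wing had 13 peaks, WT wing 7, WT leg 10 and gland 17. From 100 to 200 kb there was 1 peak in EcR-RNAi wing, 2 in WT wing and 2 in WT leg, but 10 in gland. The longest stretch with no peak was 115396 bp in EcR-RNAi wing, 179750 bp in WT wing (from 1088846 to 1268595), 66891 bp in WT leg and 72235 bp in gland.

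The strongest disc peaks lay at the same few transcription factor genes in all 3 disc lists. Fold enrichments over local background are the authors' own and rank peaks within a list only. In EcR-RNAi wing the strongest chromosome 4 peak, with a fold enrichment of 6.08, was inside Sox102F, a SoxD factor gene (chr4:832891-833369). Next came zfh2 at chr4:508410-508801 (5.93), ey at chr4:704356-704725 (5.91), zfh2 again at chr4:506835-507965 (5.82), and a peak 161 bp from the end of sv at chr4:1088524-1088867 (5.81). In WT wing the order was zfh2 at chr4:508379-508797 (8.32), zfh2 at chr4:527532-528463 (7.82), Sox102F at chr4:832921-833354 (7.02), ey at chr4:704378-704714 (6.62) and sv at chr4:1088520-1088845 (6.07). In WT leg it was zfh2 at chr4:527477-528469 (11.3), zfh2 at chr4:508379-508768 (9.27), ey at chr4:704367-704711 (7.76), Sox102F at chr4:832926-833351 (7.41) and zfh2 at chr4:506841-507967 (7.04). Among these sites, gland had a peak at ey and at the zfh2 site at chr4:506841-507967, and none at the others. By fold enrichment the best of them in WT leg, at zfh2, ranked 627 among the 26754 peaks of its list. The best in WT wing ranked 1059 of 29283, and the best in EcR-RNAi wing 1621 of 18464.

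The strongest gland peaks lay elsewhere. The first, with a fold enrichment of 9.21 and rank 58 in the gland list, was at chr4:1295043-1295222, 23338 bp past Cadps, and all 4 lists had a peak there. The second, 7.56, was at chr4:561813-561988 in Pur-alpha, which encodes a single-stranded nucleic-acid binding protein, and no disc list had it. The third, 7.42, was 9 bp from the end of myo, the TGF-beta ligand gene myoglianin, at chr4:695990-696102, with a peak in EcR-RNAi wing and WT leg but not WT wing. The next, 7.22, was at the adjoining ends of CG11076 and ATPsynbeta, the gene for a mitochondrial ATP synthase subunit, at chr4:1031425-1031801, and was in all lists. The fifth, 6.37, was at chr4:1278411-1278462, 6673 bp past Cadps, and in the gland list alone.

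Few gland peaks of chromosome 4 coincided with disc peaks. WT wing peaks overlapped 23 of the 139 gland peaks (16.5%, 95% exact binomial interval 10.8 to 23.8), against 43.7% on the other autosomes. WT leg peaks overlapped 39 (28.1%, 20.8 to 36.3), against 44.5%, and EcR-RNAi wing peaks 30 (21.6%, 15.1 to 29.4), against 51.2%. Counted from the disc side the shares were nearer: gland peaks overlapped 28.6% of WT wing peaks (18.8 to 40.0), against 23.4%, 38.3% of WT leg peaks (28.5 to 48.9), against 26.6%, and 36.8% of EcR-RNAi wing peaks (26.1 to 48.7), against 41.2%. With peaks of −log10 q of at least 10 in both lists, 6 of 13 gland peaks met a WT wing peak (46.2%, 19.2 to 74.9), against 52.2% on the other autosomes, and 6 of 13 an EcR-RNAi wing peak (46.2%), against 61.8%. At that mark 4 of 13 met a WT leg peak (30.8%, 9.09 to 61.4), against 53.5%. The share met by WT leg peaks thus stayed close to its value over all peaks, and the other shares were higher than over all peaks. Of these 13 peaks, 4 (30.8%) met no disc peak of any −log10 q, against 434 of 2885 (15%) on the other autosomes.

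The disc lists shared most of their chromosome 4 peaks. WT leg peaks overlapped 66 of 77 WT wing peaks (85.7%, 75.9 to 92.6), against 73.6% on the other autosomes, and WT wing peaks overlapped 66 of 94 WT leg peaks (70.2%, 59.9 to 79.2), against 81.7%. WT wing peaks overlapped 46 of 76 EcR-RNAi wing peaks (60.5%, 48.6 to 71.6), against 78.5%. Counted the other way, EcR-RNAi wing peaks overlapped 46 of 77 WT wing peaks (59.7%, 47.9 to 70.8), against 52.5%. With peaks of −log10 q of at least 10 in both lists, these shares were closer to those of the other autosomes. WT leg peaks then overlapped 81.25% of WT wing peaks, against 81.7%, and WT wing peaks 74.3% of WT leg peaks, against 81.8%. WT wing peaks overlapped 70.6% of EcR-RNAi wing peaks, against 78.3%, and EcR-RNAi wing peaks 75% of WT wing peaks, against 76.9%. A total of 96 gland peaks (69.1%) were in no other list, against 43.1% on the other autosomes. Their median width was 78 bp, against 104 bp for such peaks on the other autosomes. In other traits they were close to such peaks elsewhere: 78.1% lay inside a gene, against 79.1%, and 95.8% had a −log10 q under 10, against 92.5%. Peaks in no other list numbered 15 in EcR-RNAi wing (19.7%, against 10.8%), 6 in WT wing (7.79%, against 18.7%) and 9 in WT leg (9.57%, against 13.8%).

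**Figure D2:**
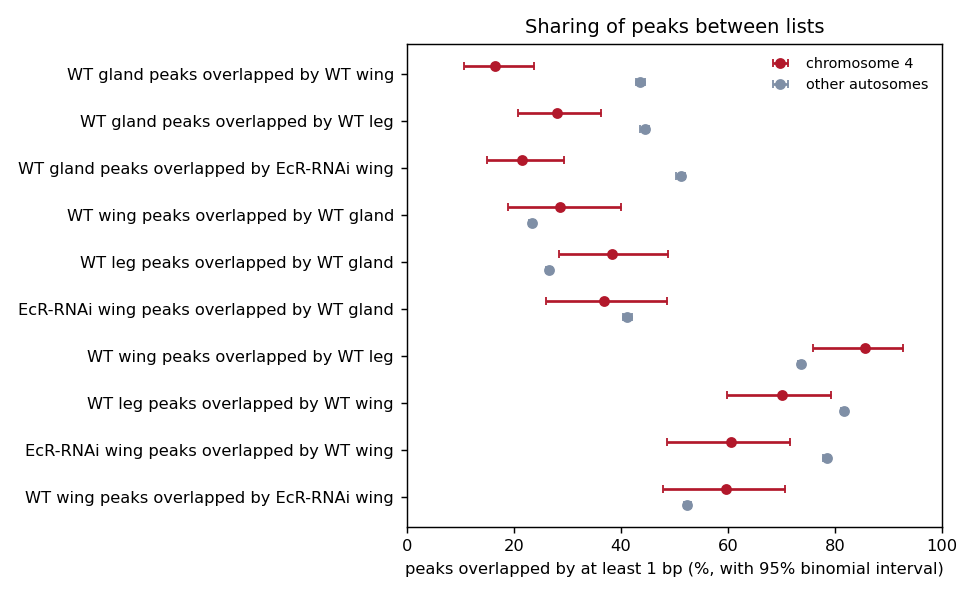
Percent of the peaks of 1 list overlapped by at least 1 bp by a peak of another, on chromosome 4 and on the other autosomes (points, with 95% binomial intervals as bars). Gland peaks on chromosome 4 were overlapped by disc peaks in 16.5% to 28.1% of cases, against 43.7% to 51.2% on the other autosomes.

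Most transcription factor genes of the chromosome held peaks in every list, and the shares of signalling genes ordered the lists as those of all genes of the chromosome did. Of 16 listed transcription factor genes of the chromosome, 12 had a peak in EcR-RNAi wing, 13 in WT wing, 14 in WT leg and 12 in gland, where all protein-coding genes of the chromosome gave 30, 28, 42 and 59 of 80. zfh2 had 11 peaks in EcR-RNAi wing, 9 in WT wing, 8 in WT leg and 5 in gland. The zinc-finger gene dati had 2, 6, 5 and 2 in the same lists. Pur-alpha had 2, 1, 1 and 5, and Hcf, for host cell factor, 1, 1, 1 and 4. No list had a peak at NfI, for nuclear factor I, and only gland had 1 at Mitf, a regulator of lysosomal genes in mammals.

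**Figure D3:**
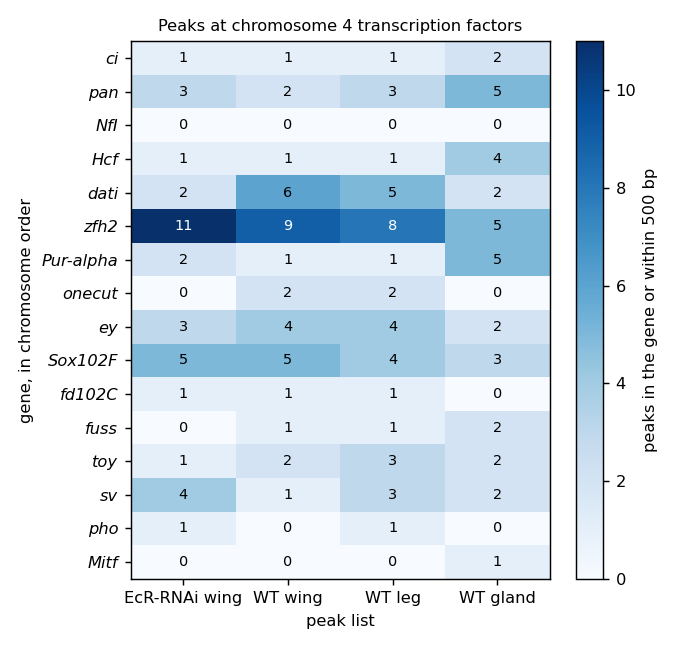
Number of peaks inside or within 500 bp of each of 16 transcription factor genes of chromosome 4 (rows, in chromosome order) in the 4 peak lists (columns); darker squares hold more peaks. zfh2 had the most in the disc lists, 8 to 11, while Pur-alpha and Hcf had 5 and 4 in gland and 1 or 2 in each disc list.

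Among 15 signalling genes, 5 had a peak in EcR-RNAi wing, 2 in WT wing, 8 in WT leg and 12 in gland (33.3%, 13.3%, 53.3% and 80%), where all protein-coding genes of the chromosome gave 37.5%, 35%, 52.5% and 73.8%. The semaphorin receptor gene PlexB and the kinase gene CaMKI each had 3 in gland and 0 in the other lists. Of the 9 matched housekeeping genes, 3 had a peak in EcR-RNAi wing, 3 in WT wing, 7 in WT leg and 8 in gland (33.3%, 33.3%, 77.8% and 88.9%), and gw, whose product GW182 acts in microRNA silencing, had 1, 1, 2 and 5 peaks. Of the 7 matched neuronal and synaptic genes, 3, 2, 3 and 3 had one, and unc-13, a synaptic vesicle priming gene, had 4 in gland alone. With peaks of −log10 q of at least 10 alone, gland kept 4 of the 16 transcription factor genes, 1 of the 15 signalling genes and 3 of the 9 housekeeping genes, beside 11, 2 and 0 in WT wing.

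The comparison tables give 1 log2 fold, 1 standard error (SE) and 1 adjusted p per region, from DESeq2, and no value per library, so the 2 libraries of a group cannot be shown apart. With 2 libraries a group these p-values measure only the spread between the libraries, which may be technical, and in tissue lysates fewer cells with an open site and less opening per cell cannot be told apart. The WT wing libraries enter 3 of the 4 comparisons, and those of gland and leg enter 2 each, so their folds are not independent. Called regions are those with an adjusted p below 0.05 whose log2 fold is 1 or more in size. The mean normalized count of the 39 regions had a median of 130.9, against 119.2 on the other autosomes, and 24 of them lay in or nearest to a listed transcription factor gene. They covered 38 of the 76 EcR-RNAi wing peaks on chromosome 4 (50%, against 66.3% on the other autosomes). Of the 77 WT wing peaks they covered 34 (44.2%, against 45.5%), and of the 94 WT leg peaks 37 (39.4%, against 49.2%). Of the 139 gland peaks they covered only 25 (18.0%, against 54.2%). Most gland peaks of the chromosome, and many of its disc peaks, were thus not tested. Of the 39 regions, 10 (25.6%) were called in at least 1 comparison, against 45% on the other autosomes and 44% over all regions.

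Between EcR-RNAi wing and WT wing a single region of chromosome 4 was called. Of 38 tested regions in the authors' deposited table, 1 was higher in EcR-RNAi wing and 0 were higher in WT wing, which is 2.63% in all, against 1.9% on the other autosomes. The authors' deposited table had 2.03% called over all 12543 tested regions, 0.789% higher in EcR-RNAi wing and 1.24% higher in WT wing. Centring the folds on the median of all regions turned this balance on the other autosomes, to 123 regions higher in EcR-RNAi wing and 72 higher in WT wing, where the authors' deposited table had 86 and 108, and left the single chromosome 4 call. That region, chr4:1306188-1306788, lay 34729 bp past the end of Cadps, and the authors' deposited table gives it a log2 fold of -1.18 (SE 0.18, adjusted p = 1.4e-08) for WT wing over EcR-RNAi wing. Below the fold threshold, the authors' deposited table gave Sox102F regions at chr4:807685-808325 (-0.73, SE 0.20, adjusted p = 0.00473) and chr4:829681-830242 (-0.67, SE 0.21, adjusted p = 0.0165), both toward EcR-RNAi wing. The same authors' deposited table gave Tdg, a thymine DNA glycosylase gene, -0.53 at chr4:557115-558298 (SE 0.18, adjusted p = 0.0254), also toward EcR-RNAi wing. It gave 0.60, toward WT wing, at the zfh2 site chr4:508378-508919 (SE 0.18, adjusted p = 0.0152), in the authors' deposited table.

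The folds of chromosome 4 as a whole leaned toward EcR-RNAi wing. For WT wing over EcR-RNAi wing the authors' deposited table had a median log2 fold of -0.27 over the 39 regions and 0.07 over the other autosomes, where the arms ranged from 0.05 to 0.08. It was below 0 at 26 regions (66.7%), against 43.9% on the other autosomes. At any fold, an adjusted p below 0.05 in the authors' deposited table fell on 4 regions higher in EcR-RNAi wing (10.5%) and 1 higher in WT wing (2.63%), against 5.82% and 9.74% on the other autosomes and 5.38% and 10.4% over all regions. The lean was larger at gene ends: in the authors' deposited table the median was -0.41 over 18 regions within 500 bp of one, against -0.01 on the other autosomes, and -0.09 over the 21 farther away, against 0.12. The difference between chromosomes has no test here, because no value per library is at hand and the regions of 1 chromosome share their libraries.

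**Figure D4:**
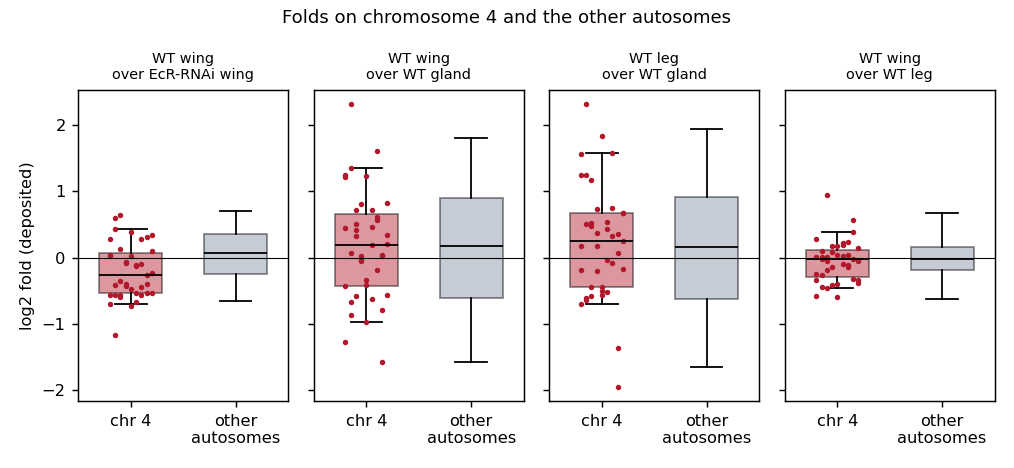
Deposited log2 folds of the 39 chromosome 4 regions (points, with box) and of the 10549 regions of the other autosomes (box) in the 4 comparisons; boxes show the quartiles and the median, whiskers the 5th and 95th percentiles. The chromosome 4 box sits lowest against its neighbour for WT wing over EcR-RNAi wing, with a median of -0.27 against 0.07.

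Against gland, WT wing was more open at 3 of 7 zfh2 regions, 1 of 5 Sox102F regions and 2 of 4 past Cadps. Of the 39 regions in the authors' deposited table, 6 were higher in WT wing and 2 higher in gland, which is 20.5% in all, against 34.8% on the other autosomes. Over all 13008 regions the authors' deposited table had 33.8% called, 21.1% higher in WT wing and 12.7% higher in gland. With centred folds 6 chromosome 4 regions were higher in WT wing and 4 higher in gland, and the share of calls higher in WT wing on the other autosomes was 48.1%, in place of 61.9% in the authors' deposited table. The highest log2 fold of WT wing over gland in the authors' deposited table was 2.33 (SE 0.23, adjusted p = 2.0e-21) at chr4:1306188-1306788, past Cadps. The Sox102F region chr4:832870-833369 had 1.62 (SE 0.18, adjusted p = 1.5e-18) in the authors' deposited table. The 3 called zfh2 regions had 1.35 at chr4:508378-508919, 1.26 at chr4:506800-508002 and 1.24 at chr4:527457-528475 in the authors' deposited table, each with an SE of 0.15 to 0.19. The zfh2 regions not called had 0.02 to 0.82 in the authors' deposited table, and the Sox102F regions not called had -0.33 to 0.19. Another region past Cadps, chr4:1295026-1295324, had 1.22 (SE 0.27, adjusted p = 2.0e-05) in the authors' deposited table. The other two of the 4 regions past Cadps were not called, with 0.20 (adjusted p = 0.453) at chr4:1279232-1279449 and 0.42 (adjusted p = 0.215) at chr4:1316682-1317200 in the authors' deposited table.

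Gland was higher at 1 of 3 sv regions and 1 of 2 myo regions. The sv region chr4:1098637-1098770 had a log2 fold of WT wing over gland of -1.58 (SE 0.39, adjusted p = 2.4e-04) in the authors' deposited table, at a mean normalized count of 22.3, the lowest of the 39. The sv region of highest count, chr4:1088504-1088914, leaned the other way without being called, with 0.72 (SE 0.23, adjusted p = 0.00363) in the authors' deposited table. The myo region chr4:695233-695516 had -1.28 (SE 0.36, adjusted p = 0.0011) in the authors' deposited table. Over all 39 regions the median log2 fold in the authors' deposited table was 0.19, beside 0.18 on the other autosomes, and the median absolute log2 fold was 0.57 against 0.75.

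Leg against gland gave the same zfh2, Sox102F and sv regions, in a comparison that shares the gland libraries with the one above. Of the 39 regions in the authors' deposited table, 7 were higher in WT leg and 2 higher in gland, which is 23.1% in all, against 36.2% on the other autosomes. Over all regions the authors' deposited table had 35.8% called, 22.6% higher in WT leg and 13.3% higher in gland. With centred folds the chromosome 4 counts were 7 and 2, and the share of calls higher in WT leg on the other autosomes was 50%, in place of 61.8% in the authors' deposited table. For WT leg over gland the authors' deposited table gave log2 folds of 1.84 at chr4:527457-528475, 1.25 at chr4:506800-508002 and 1.25 at chr4:508378-508919, all in zfh2, and 1.58 at chr4:832870-833369 in Sox102F. The zfh2 regions not called had -0.45 to 0.73 in the authors' deposited table, and the Sox102F regions not called had -0.51 to 0.37. Among the 4 regions past Cadps, the called ones had 2.32 (SE 0.24, adjusted p = 1.7e-20) at chr4:1306188-1306788 and 1.57 (SE 0.27, adjusted p = 3.9e-08) at chr4:1295026-1295324 in the authors' deposited table. A region 1495 bp from fuss, a Ski/Sno-family corepressor gene, had 1.17 (SE 0.23, adjusted p = 1.0e-06) in the authors' deposited table, where WT wing over gland had 0.72 (SE 0.23, adjusted p = 0.00324) and was not called.

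Higher in gland than in leg were the sv region chr4:1098637-1098770, at -1.96 (SE 0.41, adjusted p = 3.2e-05), and gw at chr4:660203-660335, at -1.36 (SE 0.41, adjusted p = 0.0023) (log2 folds of WT leg over gland from the authors' deposited table). The myo region had -0.70 (SE 0.36, adjusted p = 0.0842) there, in the authors' deposited table, and was not called. In all, 7 of the 10 regions called against gland (70%) were called in both comparisons, against 64.6% on the other autosomes. The median log2 fold was 0.25, beside 0.15 on the other autosomes, and the median absolute log2 fold 0.52 against 0.77, in the authors' deposited table.

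The chromosome 4 regions near gene ends had median folds against gland close to 0. For WT wing over gland the median log2 fold in the authors' deposited table was -0.01 over the 18 regions near a gene end, against -0.34 on the other autosomes, and 0.42 over the 21 farther away, against 0.51. For WT leg over gland the authors' deposited table gave -0.05 against -0.34 near gene ends, and 0.52 against 0.49 farther away. At any fold, an adjusted p below 0.05 in the authors' deposited tables fell on 12 regions higher in WT wing (30.8%) and 5 higher in gland (12.8%), against 40.7% and 29% on the other autosomes and 40.5% and 28.1% over all regions. In leg against gland the authors' deposited table had 13 such regions higher in WT leg (33.3%) and 5 higher in gland (12.8%), against 40.1% and 28.5% on the other autosomes and 40.5% and 27.9% over all regions.

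**Figure D5:**
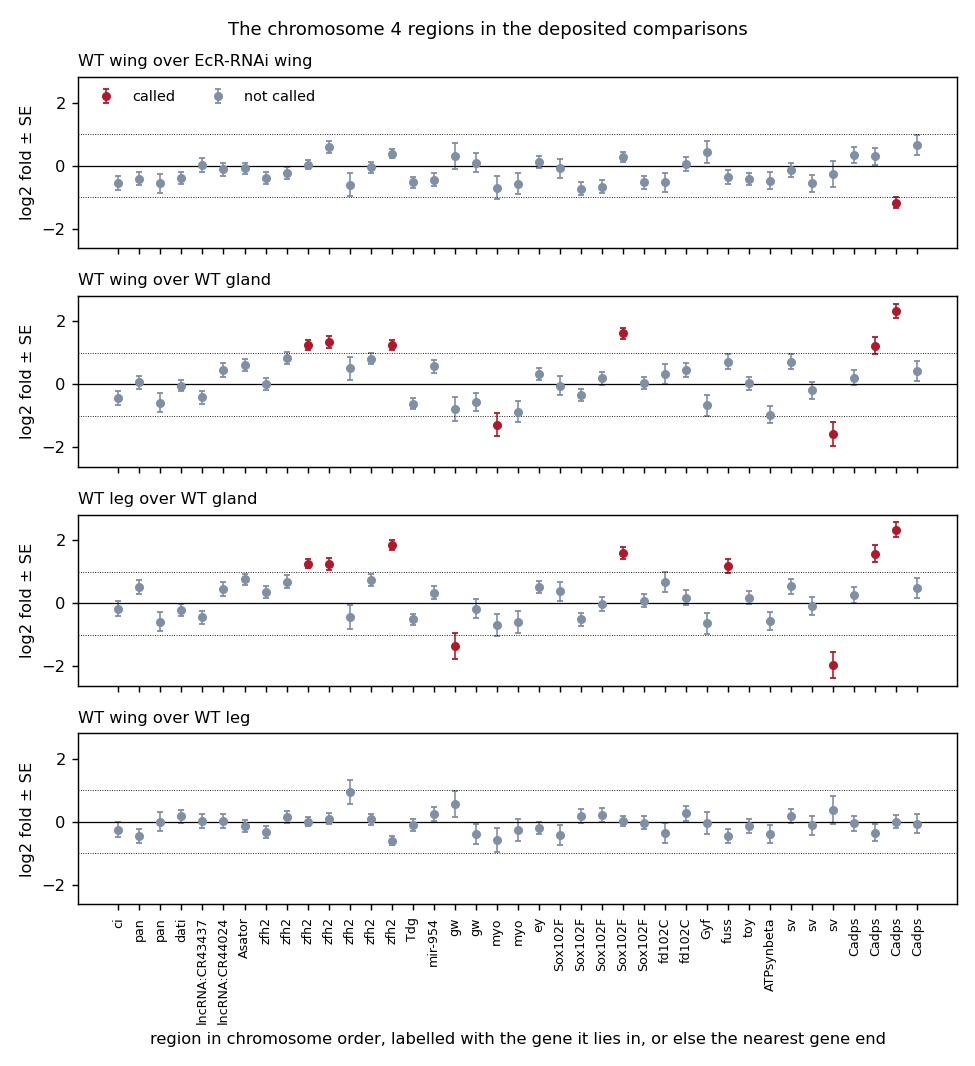
Deposited log2 fold with its SE at each of the 39 chromosome 4 regions, in chromosome order, in the 4 comparisons; red points were called, and dotted lines mark an absolute log2 fold of 1. The 4 points named Cadps lie past its end. Called points against gland fall at zfh2, Sox102F and past Cadps on the disc side, and for WT leg also near fuss, with log2 folds of 1.22 to 2.33 for WT wing, and at gw, myo and sv on the gland side.

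Wing and leg discs had no called region on chromosome 4. Of 38 tested regions in the authors' deposited table, 0 were higher in WT wing and 0 higher in WT leg. On the other autosomes the authors' deposited table had 4.32% called, and over all 12327 tested regions 4.24%, 2.04% higher in WT wing and 2.21% higher in WT leg. On chromosome 4, unadjusted DESeq2 p-values were under 0.05 at 1 of 39 regions higher in WT wing and 3 higher in WT leg in the authors' deposited table. On the other autosomes such regions numbered 910 and 915 of 10549, and over all regions 1057 and 1124 of 13008. The smallest adjusted p in the authors' deposited table was at the zfh2 region chr4:527457-528475, with a log2 fold of WT wing over WT leg of -0.59 (SE 0.15, adjusted p = 0.00105), short of the fold threshold. It was the single region with an adjusted p below 0.05 at any fold, where the authors' deposited table had 5.25% of all regions higher in WT leg and 5.05% higher in WT wing. The authors' deposited table gave the widest fold, 0.95 (SE 0.38, adjusted p = 0.125), at another zfh2 region, chr4:517051-517714. The other 3 of the smallest adjusted p-values in the authors' deposited table were at pan (-0.45, adjusted p = 0.263), near fuss (-0.45, adjusted p = 0.284) and at zfh2 chr4:501351-501971 (-0.33, adjusted p = 0.445). The median log2 fold in the authors' deposited table was -0.03 on chromosome 4 and -0.03 on the other autosomes.

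The regions of highest mean normalized count were in zfh2 and Tdg. The authors' deposited tables gave mean normalized counts of 436.4 at zfh2 chr4:506800-508002, 302.3 at zfh2 chr4:527457-528475 and 281.1 at Tdg chr4:557115-558298. Tdg leaned to gland below the fold threshold, with -0.62 for WT wing over gland (SE 0.17, adjusted p = 9.8e-04) and -0.52 for WT leg over gland (SE 0.18, adjusted p = 0.0076) in the authors' deposited tables.

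By list, of the 24 regions of 10 transcription factor genes, which are 61.5% of the 39, the authors' deposited tables called 4 higher in WT wing than in gland (16.7%) and 5 higher in WT leg than in gland (20.8%). Over all 39, which include the 24, these shares were 15.4% and 17.9%. The regions outside the list were not counted apart. In each comparison 1 of its regions was higher in gland, at sv. Their median log2 fold in the authors' deposited tables was -0.38 for WT wing over EcR-RNAi wing, 0.26 for WT wing over gland and 0.36 for WT leg over gland, beside -0.27, 0.19 and 0.25 over all 39. The 3 regions of signalling genes, at Asator and myo, held 1 call, toward gland against WT wing, and the 3 of housekeeping genes held 1, gw, toward gland against WT leg. The neuronal list has regions only past Cadps, and the muscle gene bt and the yellow family gene yellow-h have none.

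None of the 18 listed genes for chromatin regulators of chromosome 4 and X lies on chromosome 4, and 11 of them had a region inside or nearest to them, 18 regions in all. The region at Pof had a log2 fold of -0.26 for WT wing over EcR-RNAi wing, -0.20 for WT wing over gland, -0.37 for WT leg over gland and 0.17 for WT wing over WT leg in the authors' deposited tables, and none was called. Of the 18 regions the authors' deposited table called 1 higher in EcR-RNAi wing, at the H3S10 kinase gene JIL-1, with -1.01 (SE 0.31, adjusted p = 0.0165) for WT wing over EcR-RNAi wing, where 0.789% of all regions were called in that direction. Against gland, the authors' deposited tables called 1 of the 18 higher in WT wing and 1 toward gland, where 21.1% and 12.7% of all regions were called. In leg against gland 1 was higher in WT leg and 2 toward gland, where the authors' deposited table had 22.6% and 13.3% of all regions. The call toward the discs was nearest to msl-3 but outside it. The calls toward gland were at 1 of 2 regions of msl-2 and, for WT leg only, at 1 of 3 regions nearest to roX1, which lay outside that gene, and the other regions of these genes were not called.

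The tissues were checked against marker genes. At regions of wing disc genes the authors' deposited tables called 13 of 34 higher in WT wing and 1 higher in WT leg, and at leg disc genes 2 of 57 higher in WT wing and 19 higher in WT leg. Over all regions the shares were 2.04% higher in WT wing and 2.21% higher in WT leg. Salivary gland genes had 2 of 27 regions higher in WT wing and 8 higher in gland, while sage, Sgs5, Sgs7 and Sgs8 had no region. Markers of other cells in the discs also differed from gland in the authors' deposited tables: 20 of 27 regions at tracheal genes and 13 of 28 at myoblast genes were higher in WT wing, and 0 and 2 were higher in gland, where over all regions the shares were 21.1% and 12.7%. Of 5 regions at haemocyte genes the authors' deposited table called 2 higher in WT wing and 1 higher in gland, and the single fat body region was not called. The haemocyte gene Hml and the fat body genes Lsp2, Adh and Fbp1 had no region. The part of these other cells in the chromosome 4 calls was not tested. At EcR itself, whose transcript and not its DNA is the target of the hairpin, 1 of 20 regions was higher in EcR-RNAi wing and 1 higher in WT wing in the authors' deposited table, where 0.789% and 1.24% of all regions were called.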

How the data were processed

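FAIRE-seq was measured in 8 libraries of 4 groups. The submitters' processing notes name MACS2 2.1.2 and Bowtie2 2.3.4.1, build dm6, Picard 2.2.4 and SAMtools 1.9, R 3.5.2 with DESeq2 (no version), and bedtools 2.26. Their settings: not given in the sources used here. The authors deposited 1 peak list per group, on merged libraries, with a score, a fold enrichment (a ratio) and −log10 p and q values per peak. The authors deposited also 4 comparison tables over 1 set of regions, with the mean normalized count (a signal over libraries), the log2 fold, its SE, and p-values with adjusted p-values. No count per library was used, so depth per library is unknown and nothing was refitted, and the precision is that of the SEs, with a median of 0.21 for the chromosome 4 regions between EcR-RNAi wing and WT wing.

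Members and gene lists were chosen with earlier results of these data known. Peaks were assigned by summit and regions by centre, with Python 3.11.15, pandas 2.3.3, numpy 2.4.6 and scipy 1.17.1. Named were all called regions, the 5 smallest adjusted p-values where fewer than 5 were called, the 5 highest peaks per list, and the 3 highest mean normalized counts. Peak density divides all peaks of a chromosome by the span from its first to its last gene. Peak coordinates count from 1, and region coordinates are those of the tables. The RefSeq gene table of the same assembly has no strand, so both gene ends stood in for the start; exons, promoters, motifs and sequences were not analysed here. Of 53 listed chromosome 4 genes, 49 matched the gene table. The functions were tested on simulated data. Alternatives covered fold and p thresholds, centring, low counts, −log10 q, overlap rules and distances.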

Additional observations from a re-analysis of the deposited data

How the results depend on the processing

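No paired analysis was possible because the tables hold no value per library, and for the same reason leaving out each replicate was not run. Counts of regions moved most with the fold threshold. With no fold threshold, chromosome 4 had 4 regions higher in EcR-RNAi wing and 1 higher in WT wing, 12 higher in WT wing and 5 higher in gland, 13 higher in WT leg and 5 higher in gland, and 1 higher in WT leg than in WT wing. At a log2 threshold of 0.5 these counts were 4 and 1, 12 and 5, 13 and 4, and 1. Centring the folds on the median of all regions, or of the other autosomes, gave 4 regions higher in gland than in WT wing in place of 2. It put 29 of 39 folds of WT wing over EcR-RNAi wing below 0. Among chromosome 4 regions with a mean normalized count of at least its lower quartile (70.8), 0 were higher in gland than in WT wing and 0 higher in gland than in WT leg, which follows from the low counts of the gw, myo and sv regions. On the other autosomes the same filter also removed most calls toward gland, leaving 365 of 1396 against WT wing and 367 of 1457 against WT leg. Leaving out the 4 regions past the last gene, which was added after seeing the data, 0 remained higher in EcR-RNAi wing.

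The density ratio at −log10 q of at least 20 was 0.290 in EcR-RNAi wing, 0.182 in WT wing, 0.145 in WT leg and 0.496 in gland, the last resting on 1 peak. In gland it was 0.382 at 10. At 5, a mark chosen after seeing the data, it was 0.390, 0.347 and 0.454 in the disc lists and 0.567 in gland, the highest of the 4. Peaks per gene gave 0.662, 0.443, 0.595 and 1.35. Leaving out 1 Mb near the centromere of the other arms moved no ratio beyond its interval. Under reciprocal overlap of 50%, gland overlapped 15.8% of EcR-RNAi wing peaks, 9.09% of WT wing peaks and 14.9% of WT leg peaks, and of gland peaks 8.63%, 5.04% and 10.1% were overlapped by EcR-RNAi wing, WT wing and WT leg. At −log10 q of at least 10, gland overlapped 17.6%, 18.8% and 11.4% of the same disc lists, against 23.0%, 18.9% and 19.3% on the other autosomes. EcR-RNAi wing and WT wing each overlapped 46.2% of gland peaks, against 61.8% and 52.2%, and WT leg 30.8%, against 53.5%. EcR-RNAi wing overlapped 75% of WT wing peaks, against 76.9%. Near gene ends lay 33.1% of gland peaks within 250 bp, 53.2% within 1000 bp and 61.5% at −log10 q of at least 10, and 44.1% of EcR-RNAi wing peaks at that mark. The cause of these moves was not tested.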

Other observations

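The strongest gland peak of chromosome 4, at chr4:1295043-1295222, lies in a region that the authors' deposited tables give as higher in both discs, with log2 folds of 1.22 for WT wing over gland and 1.57 for WT leg over gland. In the same tables that region is marked as having no gland peak. On chromosome 4 the marks of the tables and the peak lists differ at 10 of 39 regions for EcR-RNAi wing, 18 for WT wing, 14 for WT leg and 7 for gland, each time with a peak in the list and no mark. On the other autosomes a peak without a mark fell at 2958, 3216, 3064 and 832 of 10549 regions, in the same order. For gland, 557 regions there had a mark and no peak. At 12 regions of the chromosome unadjusted p-values were under 0.05 toward EcR-RNAi wing (30.8%), and at 3 toward WT wing (7.69%), in the authors' deposited table, against 11.8% and 19.5% on the other autosomes.

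Along the chromosome, peak counts of the lists differed by stretch. From 1100 to 1200 kb EcR-RNAi wing had 3 peaks, WT leg 4 and gland 7, while WT wing had 0. From 300 to 400 kb EcR-RNAi wing had 3 peaks, WT wing 8, WT leg 8 and gland 14. At onecut, a homeodomain gene, EcR-RNAi wing had 0 peaks, WT wing 2, WT leg 2 and gland 0.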
